A study of Mus musculus with 20 samples.

Results

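The 10 genes described here are Fos, Fosb, Jun, Junb, Egr1, Atf3, Ier2, Dusp1, Zfp36 and Nr4a1. They were taken by name from a table of 16669 mouse genes, and all 10 were found in it. The table holds bulk RNA-seq levels from mouse ear pinnae, the right one having been injected intradermally. The samples formed 4 groups of 5 libraries each, which received PBS, the vehicle, or PBS with interleukin-4 (IL-4), interleukin-13 (IL-13) or interleukin-31 (IL-31). Each cytokine was given as 10 µl at 0.1 µg/µl, and no genetic alteration is named for any group. The sources used here do not give the strain, age or sex of the mice, the time from injection to harvest or the number of animals. Nothing in those sources says that the 5 libraries of a group came from separate mice. Each p-value therefore weighs a group difference against the spread between these libraries, which may not be the spread between mice. The IL-4 receptor alpha chain serves both type 2 cytokines, IL-4 and IL-13, whereas IL-31 acts on sensory neurons and skin cells through its own receptor and is linked to itch.

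Immediate early genes are transcribed within minutes of a stimulus without new protein synthesis, and their transcripts decay quickly. Serum response factor with its ETS-family partners, CREB family factors and the MAP kinases drive them. FOS and FOSB proteins pair with JUN, JUNB or other basic leucine zipper proteins to form the AP-1 transcription factor, and ATF3 is a stress-induced member of the wider family. EGR1 is a zinc finger transcription factor, NR4A1 is an orphan nuclear receptor and IER2 is a short-lived nuclear regulator. DUSP1, a phosphatase that inactivates p38, JNK and ERK kinases, and ZFP36 (tristetraprolin), which binds AU-rich elements and speeds the decay of cytokine transcripts, limit the response and are induced with it. In skin these genes respond to wounding, ultraviolet light, itch signalling and also to the handling of tissue.

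Promoter sequence from RefSeq, 250 bases before to 50 bases after the transcript start on build GRCm38.p6, matched 8 of the 10 genes. Egr1 and Ier2 were not matched, so their promoters were not searched. A single promoter was searched for each of the 8 genes. Its start lies well inside the annotated gene span for Nr4a1, Dusp1, Atf3 and Zfp36, and any start farther out was not searched. The promoters printed here are those of Fos, Dusp1 and Nr4a1, the genes that changed in a comparison below, and of Fosb and Zfp36, whose levels followed each other less closely than most pairs. Each is written 5′ to 3′ on the strand of the gene. Capitals mark the cyclic AMP response element core TGACG (or CGTCA on the other strand) and its longer forms TGACGTCA and TGACGCAA, the TATA box TATAAA, the EGR site GCGGGGGCG (or CGCCCCCGC) and the CArG box bound by serum response factor.
Fos (chr12:85473640-85473939, plus strand): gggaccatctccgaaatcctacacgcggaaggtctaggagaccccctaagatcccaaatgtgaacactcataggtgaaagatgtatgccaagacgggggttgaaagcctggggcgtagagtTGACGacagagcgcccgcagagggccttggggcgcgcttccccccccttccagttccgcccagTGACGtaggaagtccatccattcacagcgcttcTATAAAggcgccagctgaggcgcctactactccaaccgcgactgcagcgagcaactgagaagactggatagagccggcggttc
Dusp1 (chr17:26508423-26508722, minus strand): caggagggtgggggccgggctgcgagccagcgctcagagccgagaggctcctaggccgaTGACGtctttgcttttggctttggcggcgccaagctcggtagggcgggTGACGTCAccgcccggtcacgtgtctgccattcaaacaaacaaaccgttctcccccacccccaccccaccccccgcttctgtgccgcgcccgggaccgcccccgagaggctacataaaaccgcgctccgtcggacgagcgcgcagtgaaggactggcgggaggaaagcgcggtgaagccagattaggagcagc
Nr4a1 (chr15:101266596-101266895, plus strand): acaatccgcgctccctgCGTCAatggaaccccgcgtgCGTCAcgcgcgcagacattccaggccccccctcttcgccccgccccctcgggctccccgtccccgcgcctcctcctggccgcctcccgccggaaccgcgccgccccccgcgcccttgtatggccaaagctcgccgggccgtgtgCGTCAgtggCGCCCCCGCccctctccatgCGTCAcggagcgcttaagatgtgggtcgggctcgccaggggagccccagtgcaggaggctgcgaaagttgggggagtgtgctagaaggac
Fosb (chr7:19309996-19310295, minus strand): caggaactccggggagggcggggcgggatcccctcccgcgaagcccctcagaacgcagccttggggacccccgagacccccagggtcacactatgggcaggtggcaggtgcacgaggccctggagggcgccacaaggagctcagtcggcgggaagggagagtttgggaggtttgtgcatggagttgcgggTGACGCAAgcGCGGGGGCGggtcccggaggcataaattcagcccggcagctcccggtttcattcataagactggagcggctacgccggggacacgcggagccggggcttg
Zfp36 (chr7:28379179-28379478, minus strand): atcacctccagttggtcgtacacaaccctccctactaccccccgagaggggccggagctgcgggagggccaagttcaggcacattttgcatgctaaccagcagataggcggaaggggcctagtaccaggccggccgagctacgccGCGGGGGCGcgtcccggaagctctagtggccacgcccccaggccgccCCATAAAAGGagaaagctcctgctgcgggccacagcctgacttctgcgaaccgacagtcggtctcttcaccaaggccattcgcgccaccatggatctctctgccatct

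Both strands of the 8 promoters were searched for 11 motifs, and 32851 promoters of 27025 genes gave the shares for comparison. The core TGACG was present in 6 of the 8 (Atf3, Dusp1, Fos, Fosb, Junb and Nr4a1), against 20.81% of all promoters. This core was added to the search after the sequences were seen. It lies inside the full element TGACGTCA, which only Dusp1 held (143 to 136 bases before the start; 1.79% of all promoters), and inside TGACGCAA, which only Fosb held (60 to 53 bases before; 0.49%). Fos held 2 copies of the core, the nearer of them 66 to 62 bases before the start, and Nr4a1 held 4 copies. GCGGGGGCG was present in 3 of 8 (Fosb, Nr4a1 and Zfp36; 2.91% of all promoters). It can overlap the GC box GGGCGG, which was in 7 of 8 and in 35.66% of all promoters. A CArG box occurred in Zfp36 alone of the 8, 58 to 49 bases before the start (1.63% of all promoters). The serum response element of Fos is known to lie farther upstream than this window. TATAAA was present in Fos, 33 to 28 bases before the start, and in Junb (13.62% of all promoters). The Junb match lies at bases 1 to 6 counted from the annotated start, not before it. CCGGAAG, the ETS site, was in Zfp36 (8.86%), as was the STAT element TTCNNNGAA (8.3%). The AP-1 site TGACTCA (5.2%) and the wider spaced STAT6-type element (6.95%) were in none of the 8.

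Levels are given as log2 CPM, the log2 of reads scaled to library size, from the table that the authors deposited. A difference of 1 on that scale is a doubling. Effective library sizes, read from the step between low values, ran from 6.1 M to 23.73 M reads (M, mega) with a median of 12.96 M, and 3 reads corresponded to 0.126 to 0.492 CPM. All 10 genes lay above that level in every library, the lowest value being Atf3 in IL-4 library 5 at 0.55 log2 CPM, or about 8.0 reads. Differences between groups were tested with limma on the log2 values of 16461 genes. A gene counted as changed when its two-sided p, adjusted over those genes by Benjamini-Hochberg, was under 0.05. The spread behind each test is shared by all 20 libraries, and the labels name no batch.

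The libraries differed in tissue content as well as in treatment. PBS libraries 1, 2 and 3 had the lowest scores for suprabasal and cornified epidermis markers (-1.35, -1.87 and -2.19, as mean log2 CPM centred per gene), and the other 17 libraries lay between -0.52 and 1.28. Skeletal muscle markers summed to 8963 to 25860 CPM in PBS, 622.4 to 4847 in IL-4, 1425 to 5312 in IL-13 and 2742 to 12070 in IL-31. All 16 of these markers fell in IL-4 and in IL-13 and none passed in IL-31. Neutrophil markers summed to 32.72 to 945 CPM in PBS, 21.49 to 260 in IL-4, 22.53 to 549.1 in IL-13 and 17.11 to 404.5 in IL-31. Their scores split the libraries into 9 above 0 and 11 below 0, and each group held libraries on both sides. Mmp8, Retnlg and Trem1 were at the floor of the table in 2, 3 and 2 libraries. Of the 10 neutrophil markers tested only Lcn2 fell, in IL-4, where 9.63% of all tested genes fell. Basal epidermis markers, which define keratinocytes, summed to 23280 to 38800 CPM in every library. In bulk tissue, fewer cells of a type and less RNA per cell cannot be told apart.

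Within the PBS group the levels per kilobase of exon ordered the genes. Junb was highest at 6.55 ± 0.96 log2 CPM per kb (mean ± SD, n = 5), followed by Ier2 at 5.52 ± 0.32, Dusp1 at 5.24 ± 0.49 and Jun at 4.84 ± 0.23. Fos (4.38 ± 1.05), Zfp36 (4.28 ± 0.78) and Egr1 (4.08 ± 0.58) came next, and each differed from its neighbour by less than 1 SD. Nr4a1 (3.55 ± 0.76), Atf3 (3.15 ± 0.67) and Fosb (2.86 ± 0.66) were lowest, and each again differed from its neighbour in this order by less than 1 SD. The order was not tested.

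**Figure D1:**
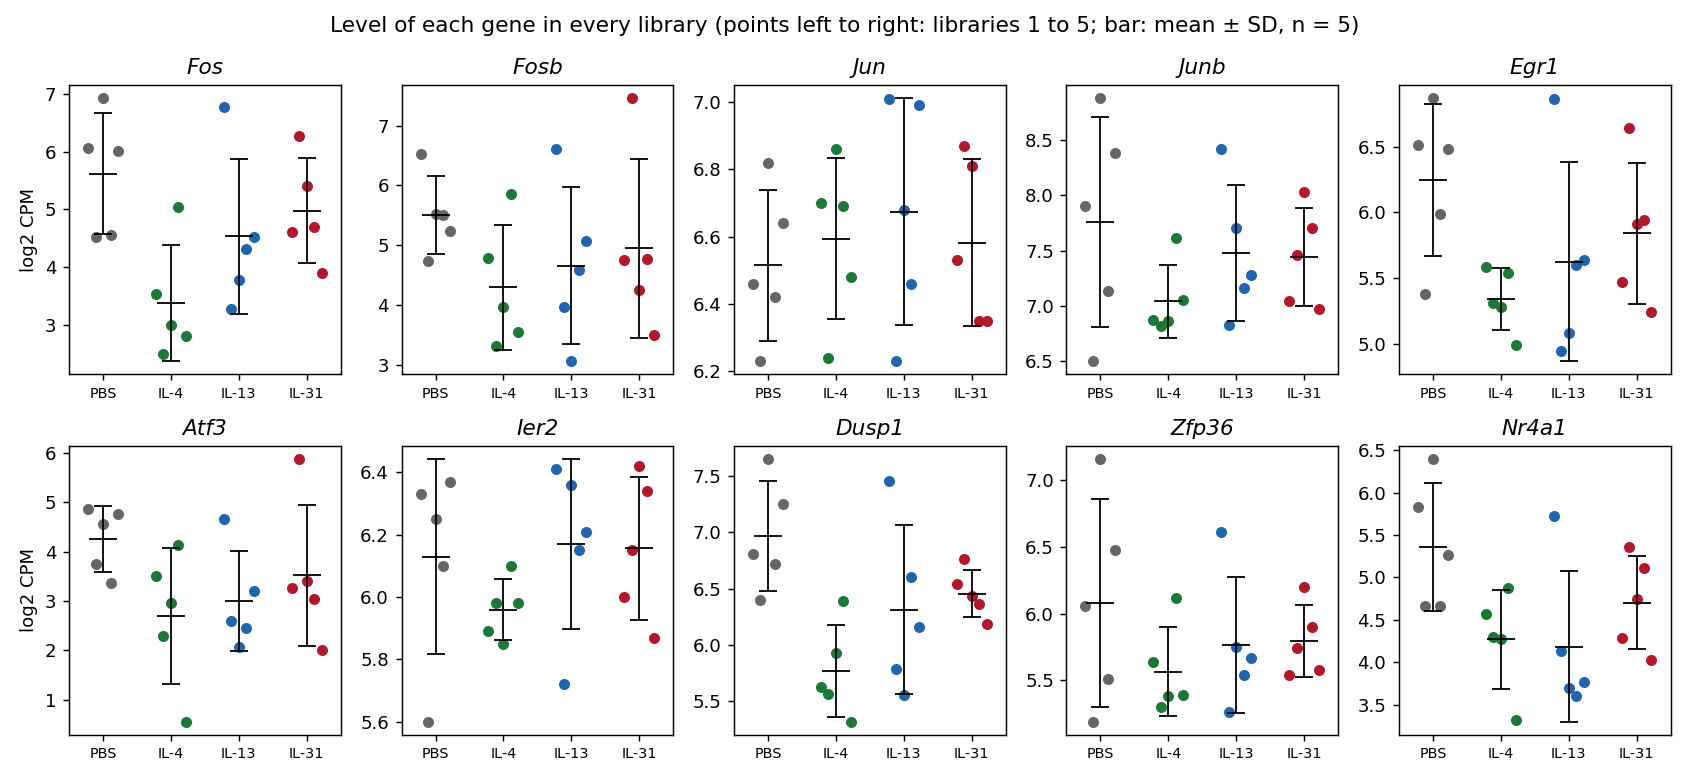
Level of each of the 10 genes in log2 CPM (vertical axis) in every library of the PBS, IL-4, IL-13 and IL-31 groups (horizontal axis). Points are libraries 1 to 5 from left to right, bars are group means with SD (n = 5), and each panel has its own axis range. Dusp1 separates PBS (lowest value 6.40) from IL-4 (highest value 6.39), while Jun and Ier2 stay within narrow bands in all groups.

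Fos and Dusp1 fell in IL-4, Nr4a1 fell in IL-13, and none of the 10 genes passed in IL-31. In IL-4, 2 of the 10 fell and 0 rose, where 9.63% of all tested genes fell, 8.22% rose and 17.8% changed in either direction. In IL-13, 1 of 10 fell and 0 rose, against 9.8% falling, 9.94% rising and 19.7% changing. In IL-31, 0 of 10 passed, against 1.2% falling, 5.18% rising and 6.38% changing. The 5 cytokine values lay wholly below the 5 PBS values for 1 of the 10 genes in IL-4 (Dusp1), 0 in IL-13 and 0 in IL-31, against 5.89%, 5.01% and 1.43% of all tested genes. At an unadjusted p under 0.05, 5, 2 and 0 of the 10 genes passed in IL-4, IL-13 and IL-31, where 31.5%, 33.7% and 23.8% of all tested genes did. The median difference of the 10 genes from PBS was -1 in IL-4, -0.64 in IL-13 and -0.46 in IL-31 on the log2 scale, and that of all tested genes was -0.02, -0.03 and -0.04. With the neutrophil score in the model the medians of the 10 were -0.61, -0.43 and -0.22, and with the skeletal muscle score they were -1.75, -1.34 and -0.66. Of the genes called over the whole table, 46.1% in IL-4 and 50.4% in IL-13 were higher than PBS, and these shares became 59.5% and 61.4% under quantile normalization. The 3 comparisons share the 5 PBS libraries, so their values for a gene are not independent.

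Among the AP-1 genes, Fos (ENSMUSG00000021250, chromosome 12, 85473890 to 85477273, plus strand of GRCm38) had the largest difference. Its values in PBS libraries 1 to 5 were 6.06, 4.52, 6.93, 4.56 and 6.02, and in IL-4 they were 3.53, 2.50, 3.00, 5.04 and 2.81. In IL-13 its values were 6.78, 3.28, 3.77, 4.32 and 4.53, and in IL-31 they were 4.61, 6.28, 5.41, 4.70 and 3.89. Of the IL-4 libraries, 4 lay below every PBS library, and IL-4 library 4 lay above PBS libraries 2 and 4, so the groups overlap. IL-13 library 1 was as high as the upper PBS libraries, while the other 4 IL-13 libraries lay near or below the lowest PBS values. Fos was 4.72-fold lower in IL-4 than in PBS (log2 difference -2.24, SE 0.62, 95% interval -3.53 to -0.95, limma adjusted p = 0.0178). This call held when any 1 of the 20 libraries was left out (-2.65 to -1.91, adjusted p 0.00791 to 0.0487). It did not pass with the neutrophil score in the model (-1.48, adjusted p = 0.0559), nor when PBS libraries 1, 2 and 3 were left out (-1.91, adjusted p = 0.149). In IL-13 the difference was -1.08 (adjusted p = 0.229) and in IL-31 -0.64 (interval -1.93 to 0.65, adjusted p = 0.534).

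Fosb (ENSMUSG00000003545, chromosome 7, 19302696 to 19310051, minus strand) encodes a close relative of FOS. It read 6.53, 4.73, 5.52, 5.50 and 5.24 in PBS and 4.79, 3.31, 3.96, 5.86 and 3.54 in IL-4. It read 6.60, 3.97, 3.06, 4.59 and 5.06 in IL-13 and 4.75, 7.46, 4.25, 4.77 and 3.49 in IL-31. The groups overlap, with IL-4 library 4, IL-13 library 1 and IL-31 library 2 standing above the rest of their groups, and IL-31 library 2 was the highest of all 20. The differences from PBS were -1.21 in IL-4 (interval -2.60 to 0.18, adjusted p = 0.227), -0.85 in IL-13 (adjusted p = 0.393) and -0.56 in IL-31 (adjusted p = 0.62). With 1 library left out the IL-31 difference ran from -1.19, without IL-31 library 2, to -0.20, and none of the 20 fits passed (adjusted p 0.229 to 0.889).

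Atf3 (ENSMUSG00000026628, chromosome 1, 191170296 to 191218039, minus strand) spanned the widest range, 40.2-fold over the 20 libraries. Its values were 4.86, 3.75, 4.55, 3.36 and 4.77 in PBS and 3.51, 2.29, 2.96, 4.14 and 0.55 in IL-4. They were 4.67, 2.60, 2.06, 2.45 and 3.20 in IL-13 and 3.26, 5.88, 3.41, 3.03 and 2.00 in IL-31. The same 3 libraries that were high for Fosb were the highest of their groups, and IL-31 library 2 exceeded every PBS library. The differences were -1.57 in IL-4 (interval -2.96 to -0.18, adjusted p = 0.111), -1.26 in IL-13 (adjusted p = 0.191) and -0.74 in IL-31 (adjusted p = 0.501). With 1 library left out the IL-31 value ran from -1.33, without IL-31 library 2, to -0.36, and none of the 20 fits passed (adjusted p 0.193 to 0.782).

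Jun and Junb encode the partners of FOS, and neither passed in any comparison. Jun (ENSMUSG00000052684, chromosome 4, 95049034 to 95052222, minus strand) lay between 6.23 and 6.82 in PBS, 6.24 and 6.86 in IL-4, 6.23 and 7.01 in IL-13, and 6.35 and 6.87 in IL-31. The group means were 6.51 ± 0.23, 6.60 ± 0.24, 6.68 ± 0.34 and 6.58 ± 0.25 (SD, n = 5), so the 4 groups occupied the same band. The 95% intervals of the Jun differences were -0.25 to 0.41 in IL-4, -0.16 to 0.49 in IL-13 and -0.26 to 0.40 in IL-31. Junb (ENSMUSG00000052837, chromosome 8, 84974484 to 84978718, minus strand) read 7.90, 6.50, 8.88, 7.13 and 8.38 in PBS and 6.87, 6.82, 6.86, 7.61 and 7.05 in IL-4. It read 8.42, 6.83, 7.70, 7.16 and 7.28 in IL-13 and 7.04, 7.46, 8.03, 7.70 and 6.97 in IL-31. PBS held both the highest and the lowest Junb value of the series, in libraries 3 and 2, and its SD of 0.96 compared with 0.33 in IL-4. The Junb differences were -0.71 (interval -1.47 to 0.04, adjusted p = 0.182), -0.28 (adjusted p = 0.623) and -0.32 (adjusted p = 0.601) for the 3 cytokines in the same order. With PBS library 2 left out, the IL-4 difference of Junb passed (-1.03, adjusted p = 0.0471). In the other 19 fits that left out 1 library it did not, and without PBS library 3 it was -0.43 (adjusted p = 0.43).

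Egr1 (ENSMUSG00000038418) is induced through serum response factor and ETS factors. It read 6.51, 5.38, 6.87, 5.99 and 6.48 in PBS and 5.58, 5.31, 5.28, 5.54 and 4.99 in IL-4. It read 6.86, 4.94, 5.08, 5.60 and 5.64 in IL-13 and 5.47, 6.64, 5.91, 5.94 and 5.24 in IL-31. Apart from PBS library 2, every PBS library was above every IL-4 library. The IL-4 difference was -0.90 (SE 0.32, interval -1.58 to -0.23, 1.87-fold lower) and just missed the threshold (limma adjusted p = 0.0568). It passed without PBS library 2 (-1.12, adjusted p = 0.0291), without IL-13 library 1 (0.0236), IL-13 library 2 (0.0489) or IL-31 library 2 (0.0477), and in a fit of the 10 PBS and IL-4 libraries alone (0.0418). Under quantile normalization it also passed (-0.94, adjusted p = 0.0498), and with a replicate block it did not (-0.90, adjusted p = 0.0693). Only 4 of the 20 fits that left out 1 library passed, and the 20 gave -1.12 to -0.75 with adjusted p from 0.0236 to 0.137. The difference did not pass with the neutrophil score in the model (-0.60, adjusted p = 0.19), with the muscle score (-1.67, adjusted p = 0.136) or with PBS libraries 1, 2 and 3 removed (-0.89, adjusted p = 0.174). The IL-13 and IL-31 differences were -0.62 (adjusted p = 0.181) and -0.41 (adjusted p = 0.445).

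Nr4a1 (ENSMUSG00000023034, chromosome 15, 101254269 to 101274795, plus strand) had 5.83, 4.66, 6.40, 4.66 and 5.26 in PBS and 4.57, 4.30, 4.27, 4.88 and 3.32 in IL-4. It had 5.73, 4.13, 3.70, 3.60 and 3.76 in IL-13 and 4.28, 5.36, 4.74, 5.11 and 4.03 in IL-31. IL-13 libraries 2 to 5 lay below every PBS library, and IL-13 library 1 lay above 3 of them. Nr4a1 was 2.26-fold lower in IL-13 (log2 difference -1.18, SE 0.41, interval -2.02 to -0.33, adjusted p = 0.0464). The IL-4 difference was close to it in size (-1.09, interval -1.94 to -0.25) and did not pass (adjusted p = 0.0678), although it did without PBS library 4 (-1.27, adjusted p = 0.0398) or IL-13 library 1 (adjusted p = 0.0298). The other fits that left out 1 library did not pass, and all 20 gave -1.27 to -0.83 with adjusted p up to 0.185. With the neutrophil score in the model the IL-4 difference of Nr4a1 was -0.62 (adjusted p = 0.243), and with PBS libraries 1, 2 and 3 removed it was -0.69 (adjusted p = 0.411). IL-31 gave -0.66 (interval -1.50 to 0.19, adjusted p = 0.322). The IL-13 call held in 8 of the 20 fits that left out 1 library. It was lost without PBS library 1 or 3, without IL-4 library 1, 2 or 3, without IL-13 library 2, 3, 4 or 5, and without IL-31 library 1, 3 or 4. The differences in these fits ran from -1.56 to -0.92, with adjusted p from 0.0081 to 0.13. It was also lost with the neutrophil score in the model (-0.85, adjusted p = 0.0756), with PBS libraries 1, 2 and 3 removed (-0.78, adjusted p = 0.423) and in a fit of the 10 PBS and IL-13 libraries alone (adjusted p = 0.119).

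Ier2 (ENSMUSG00000053560, chromosome 8, 84661331 to 84662852, minus strand) was steady. Its values ranged from 5.60 to 6.37 in PBS, 5.85 to 6.10 in IL-4, 5.72 to 6.41 in IL-13 and 5.87 to 6.42 in IL-31. The lowest PBS library was number 2, and the 5 IL-4 libraries all lay within the PBS range. The differences were -0.17 in IL-4 (interval -0.47 to 0.13), 0.04 in IL-13 (-0.26 to 0.34) and 0.02 in IL-31 (-0.28 to 0.33), with adjusted p of 0.463, 0.875 and 0.933.

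Of the feedback genes, Dusp1 (ENSMUSG00000024190, chromosome 17, 26505590 to 26562128, minus strand) fell in IL-4. It read 6.81, 6.40, 7.65, 6.72 and 7.25 in PBS and 5.63, 5.57, 5.93, 6.39 and 5.32 in IL-4. It read 7.45, 5.79, 5.56, 6.60 and 6.16 in IL-13 and 6.54, 6.76, 6.43, 6.36 and 6.19 in IL-31. The PBS and IL-4 groups did not overlap, although PBS library 2 and IL-4 library 4 almost met. Dusp1 was 2.29-fold lower in IL-4 (log2 difference -1.20, SE 0.29, interval -1.80 to -0.59, adjusted p = 0.00862). The call held in all 20 fits that left out 1 library (-1.35 to -1.02, adjusted p 0.003 to 0.0281) and with the neutrophil score in the model (-0.90, adjusted p = 0.0259). Without PBS libraries 1, 2 and 3 the difference was of the same size and did not pass (-1.21, adjusted p = 0.0536). In IL-13 it was -0.65 (interval -1.26 to -0.05, adjusted p = 0.117) and in IL-31 -0.51 (interval -1.11 to 0.09, adjusted p = 0.283). A test for any difference among the 4 groups passed for Dusp1 alone of the 10 (limma F, adjusted p = 0.0398), where 14.5% of all tested genes passed. Fos was next, at an adjusted p of 0.0732. With any 1 library left out, 0 to 3 of the 10 genes passed this test.

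Zfp36 (ENSMUSG00000044786, chromosome 7, 28376784 to 28380253, minus strand) read 6.06, 5.19, 7.16, 5.51 and 6.48 in PBS and 5.64, 5.30, 5.38, 6.12 and 5.39 in IL-4. It read 6.61, 5.26, 5.75, 5.54 and 5.67 in IL-13 and 5.54, 5.74, 6.20, 5.90 and 5.58 in IL-31. As for Junb, PBS library 3 was the highest of the 20 and PBS library 2 the lowest. The differences were -0.51 (interval -1.13 to 0.10, adjusted p = 0.251), -0.31 (adjusted p = 0.484) and -0.29 (adjusted p = 0.558) for the 3 cytokines in the same order. With the neutrophil score in the model the IL-4 differences of Zfp36 and Junb were -0.04 (adjusted p = 0.903) and -0.12 (adjusted p = 0.737).

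**Figure D2:**
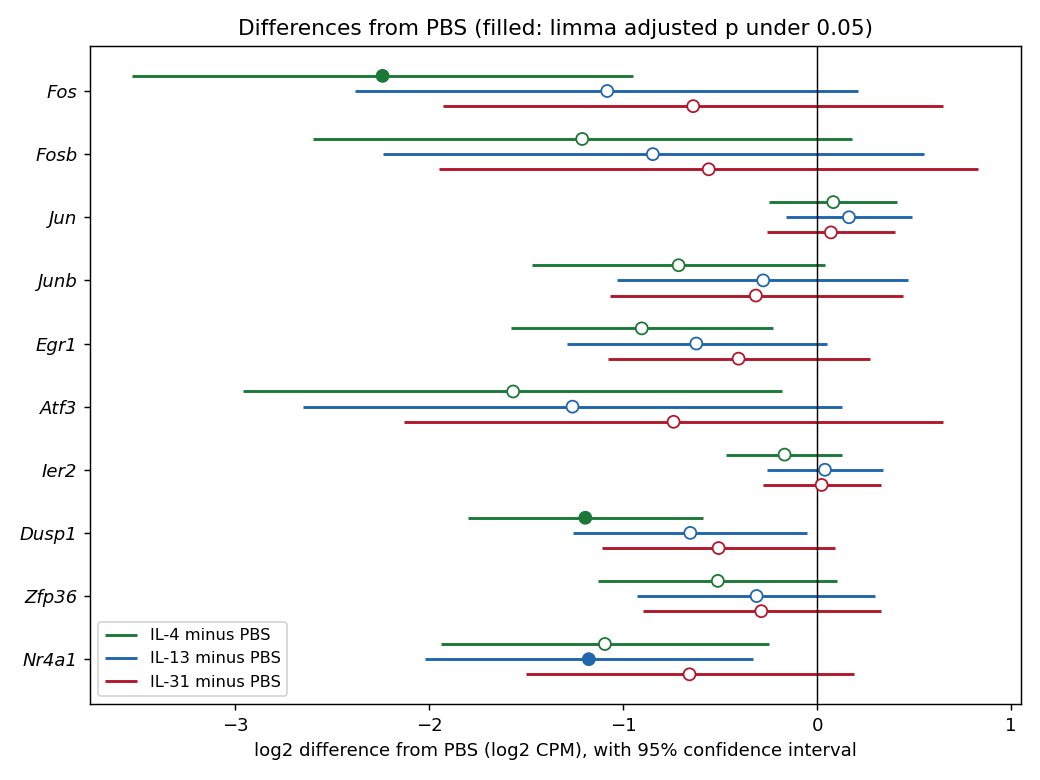
Difference of each cytokine group from PBS in log2 units (horizontal axis) for the 10 genes (vertical axis), with 95% limma intervals. Filled points passed an adjusted p under 0.05, and they are Fos and Dusp1 in IL-4 and Nr4a1 in IL-13. Most estimates lie below 0, and those of Jun and Ier2 lie close to it.

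The muscle markers moved with the IL-4 and IL-13 groups, so their part in the immediate early differences cannot be told apart from that of the group. With the muscle score in the model Fos in IL-4 was -3.84 (adjusted p = 0.098), Dusp1 in IL-4 was -1.57 (adjusted p = 0.143) and Nr4a1 in IL-13 was -1.93 (adjusted p = 0.225). In that model 3 of 16461 genes passed in IL-4 and 0 in IL-13 and IL-31. Monocyte and macrophage markers also fell, 6 of 12 in IL-4, 5 of 12 in IL-13 and 0 of 12 in IL-31, summing to 569.9 to 1326 CPM in PBS, 250.2 to 416.1 in IL-4, 259.9 to 620.9 in IL-13 and 353 to 687.1 in IL-31. Endothelial markers fell for 3 of 9 in IL-4, 6 of 9 in IL-13 and 0 of 9 in IL-31. Of 12 interferon-stimulated genes 3, 1 and 0 fell, with median differences of -1.80, -1.60 and -1.14, and 2, 2 and 0 of 8 fibroblast markers and 0, 2 and 0 of 6 adipocyte markers fell. The part of these 5 lists in the differences was not tested. Suprabasal epidermis markers rose, 6, 8 and 7 of 12 in IL-4, IL-13 and IL-31. Among all tested genes 9.63%, 9.8% and 1.2% fell and 8.22%, 9.94% and 5.18% rose in the same order. The interferon-stimulated count in IL-13, 1 of 12, lies near that share.

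Between cytokine groups, no difference passed the test in any of the 10 genes. None of the 16461 genes passed in IL-4 against IL-13, IL-4 against IL-31 or IL-13 against IL-31 with limma (0% in each). At an unadjusted p under 0.05 there were 664, 1743 and 1200 genes (4.03%, 10.6% and 7.29%), and 0, 2 and 0 of the 10. Those 2 were Fos and Dusp1 in IL-4 against IL-31. Fos was lower in IL-4 by a log2 difference of -1.60 (interval -2.89 to -0.31, unadjusted p = 0.0178 and adjusted p = 0.32 from limma). Dusp1 differed by -0.69 (interval -1.29 to -0.09, adjusted p = 0.37). In IL-4 against IL-13 the intervals were -2.45 to 0.14 for Fos and -1.14 to 0.06 for Dusp1, and Nr4a1 in IL-13 against IL-31 had -1.37 to 0.33. All of these groups overlap. The calls of Fos and Dusp1 in IL-4 and of Nr4a1 in IL-13 are therefore not shown to be particular to those cytokines.

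Apart from Jun and Ier2, the 10 genes varied widely between libraries of 1 group. The residual SD within groups was 1.17 for Fosb and Atf3, 1.09 for Fos, 0.71 for Nr4a1, 0.63 for Junb, 0.56 for Egr1, 0.51 for Zfp36 and 0.50 for Dusp1. Jun and Ier2 were the least variable, at 0.27 and 0.24, which are percentiles 50.1 and 45.1 of all tested genes. The median over the 10 was 0.596 and that over all tested genes 0.266. Among the 500 tested genes nearest in mean level, Fos stood at the 99.6th percentile of residual SD, Fosb at the 99.0th, Jun at the 84.2th and Ier2 at the 76.0th, and the median of the 10 was the 97.2th. Over all 20 libraries Fos spanned 21.6-fold and Fosb 21.1-fold, against 1.72-fold for Jun and 1.77-fold for Ier2. These percentiles are a description, since genes are not independent replicates.

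**Figure D3:**
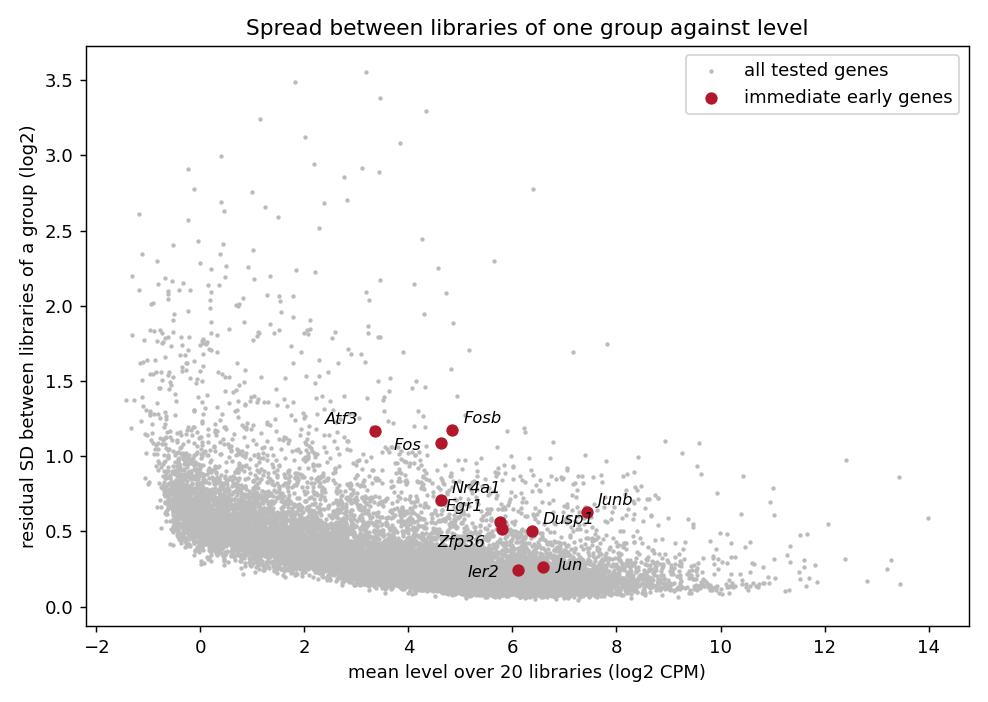
Residual SD between libraries of 1 group in log2 units (vertical axis) against the mean level over 20 libraries in log2 CPM (horizontal axis) for all 16461 tested genes (grey) and the 10 immediate early genes (red). Fosb, Atf3 and Fos have SDs between 1.09 and 1.17, and Jun and Ier2 have the lowest SDs of the 10, at 0.27 and 0.24.

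The same few libraries were high for most of the genes. The mean over the 10 genes was highest in PBS library 3 (6.70 log2 CPM), IL-13 library 1 (6.65), IL-31 library 2 (6.46), PBS library 1 (6.34) and PBS library 5 (6.29). IL-13 library 1 was among the 5 highest libraries for all 10 genes, PBS library 3 for 9, PBS library 5 for 8, and PBS library 1 and IL-31 library 2 for 7. It was lowest in IL-4 library 5 (4.54) and IL-4 library 2 (4.76). Of the 5 highest libraries, 4 also had high neutrophil scores: 3.49 in PBS library 3, 3.10 in PBS library 5, 2.91 in IL-13 library 1 and 2.41 in PBS library 1. The other, IL-31 library 2, had the lowest neutrophil score of all 20 (-2.44) and the highest Fosb and Atf3. Some libraries with neutrophil scores above 0 were not high for the genes. IL-31 library 3 scored 2.40, with a mean over the 10 genes of 5.76, and was among the 5 highest libraries for 3 of them. IL-13 library 3 scored 1.19, with a mean of 4.97, and was among the 5 lowest for 5. Interferon-stimulated scores were also highest in PBS libraries 5, 3 and 1 and IL-13 library 1 (2.85, 2.31, 1.71 and 1.47). In IL-4, library 4 had the highest neutrophil score of its group (1.73, the other 4 between -1.84 and -1.43) and the highest value of its group for Fos, Fosb, Junb, Atf3, Ier2, Dusp1, Zfp36 and Nr4a1.

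**Figure D4:**
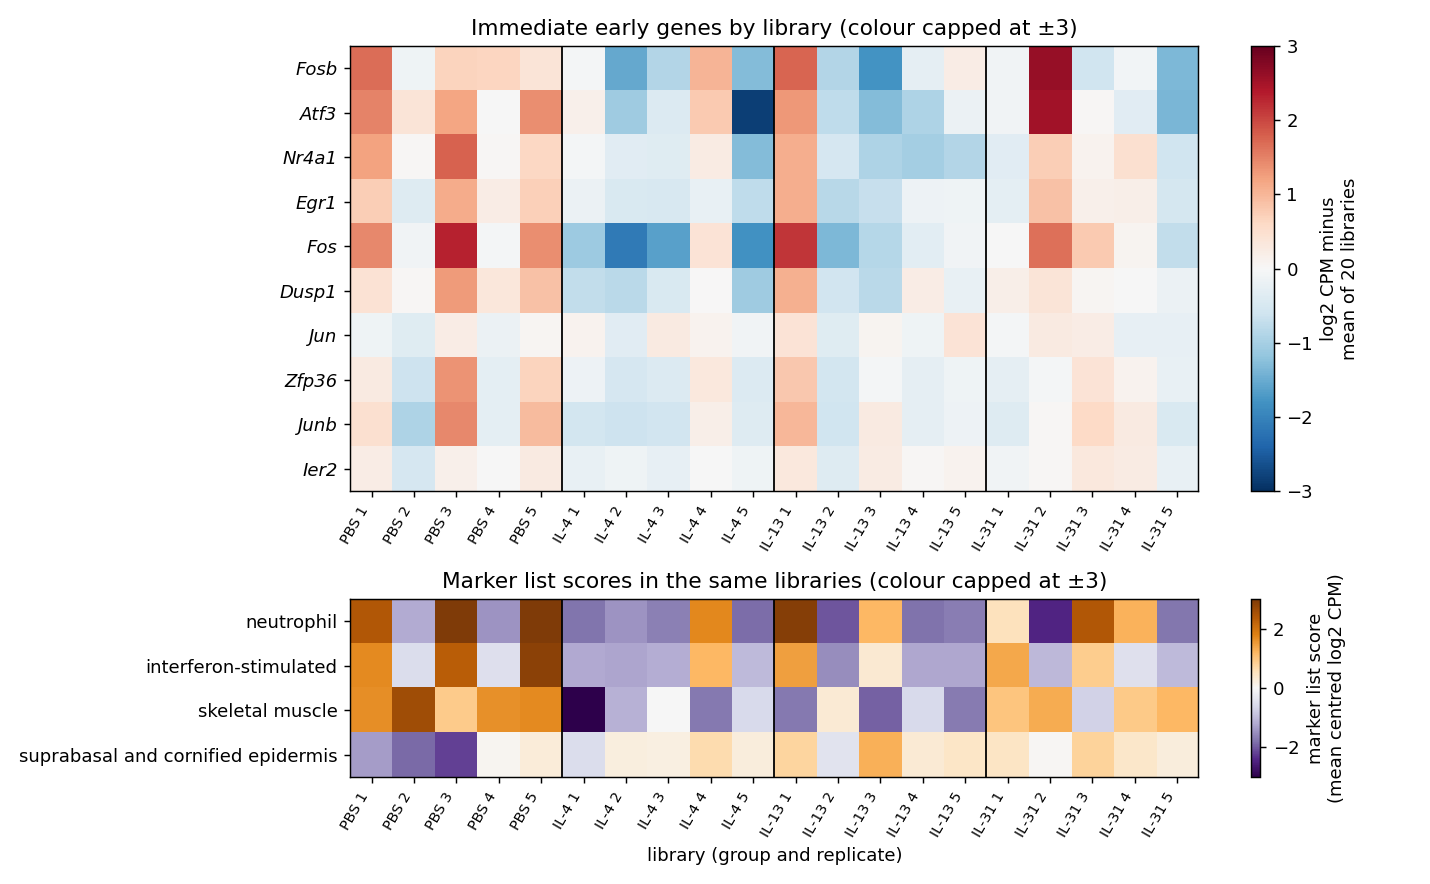
Above, level of the 10 immediate early genes (rows) in the 20 libraries (columns) as log2 CPM minus the mean of the 20 libraries. Below, scores of 4 marker lists in the same libraries, as mean centred log2 CPM. PBS libraries 1, 3 and 5 and IL-13 library 1 are high for most genes and for the neutrophil list, and IL-31 library 2 is high for Fosb and Atf3 at a neutrophil score of -2.44. IL-31 library 3 has a neutrophil score of 2.40 and is among the 5 highest libraries for 3 genes.

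The IL-13 differences depended on IL-13 library 1. With it left out, Fos (-1.64, limma adjusted p = 0.0478), Egr1 (-0.93, adjusted p = 0.0276) and Dusp1 (-0.94, adjusted p = 0.0156) passed beside Nr4a1 (-1.56, adjusted p = 0.0081). This made 4 of the 10 genes lower in IL-13, where 8.84% of all tested genes were lower in that fit. Fos, Egr1 and Dusp1 each passed in IL-13 in only 1 of the 20 fits that left out 1 library. IL-13 library 1 was the highest of its group for each of the 10 genes, so leaving it out could only lower their IL-13 means.

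Once group means were removed, the 10 genes rose and fell together from library to library. Pearson's r was positive for all 45 pairs, from 0.31 to 0.97 with a median of 0.71 over 20 libraries. For 39 pairs the adjusted permutation p was under 0.05 (100000 shuffles within groups, two-sided, Benjamini-Hochberg over 45 pairs), and Spearman's rho gave 39 as well. Leaving out the 2 libraries farthest from the median on the x axis, r ran from 0.25 to 0.95 with a median of 0.61. Without removing group means, 38 pairs passed. Junb and Zfp36 formed the closest pair (r = 0.97, rho = 0.96, adjusted permutation p = 0.000225 for both, r = 0.95 without the 2 farthest libraries). Fos and Egr1 followed each other (r = 0.90, rho = 0.92, adjusted permutation p = 0.000225), as did Fosb and Atf3 (r = 0.87, rho = 0.77, adjusted permutation p = 0.00025, r = 0.76 without the 2 farthest). The pairs that did not pass were Fosb with Junb (r = 0.36), Ier2 (0.32) and Zfp36 (0.40), and Ier2 with Atf3 (0.31), Dusp1 (0.45) and Nr4a1 (0.46). Correlation with the mean of the 10 was highest for Fos (0.972) and Egr1 (0.952) and lowest for Ier2 (0.704), a mean to which each gene itself contributes.

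**Figure D5:**
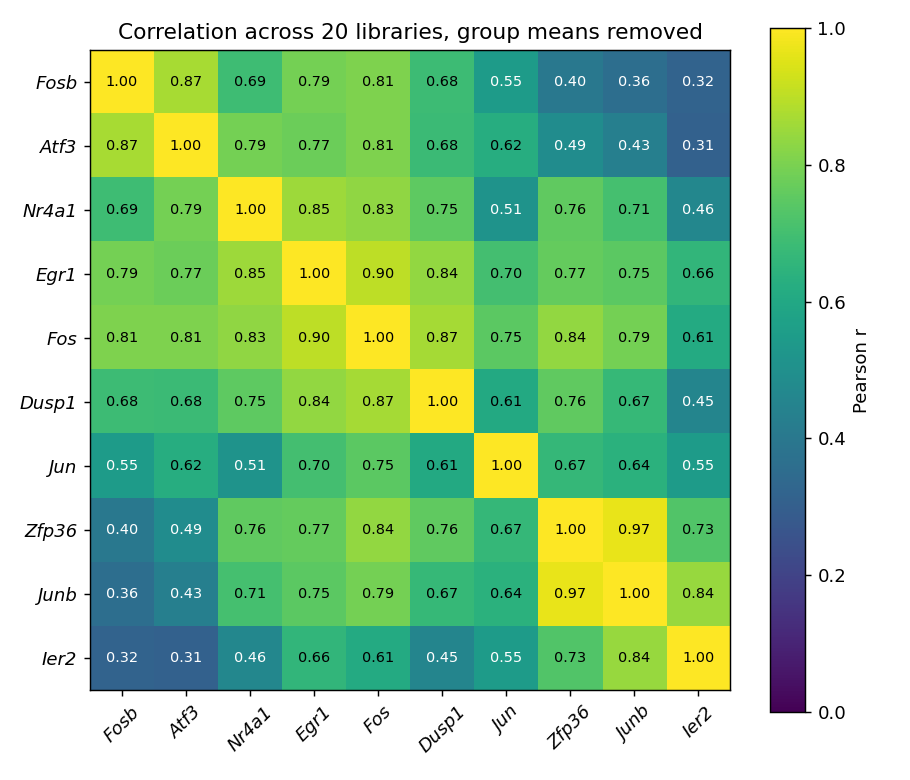
Pearson's r between the 10 genes over 20 libraries after group means were removed, as a matrix with the genes on both axes and the colour scale giving r. Junb and Zfp36 have 0.97, Fosb and Atf3 have 0.87, and the lowest values, in dark blue, are those of Fosb and Atf3 with Ier2 (0.32 and 0.31).

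Because the neutrophil scores split the libraries, r was also computed on either side of that split, as a description with no test. Group means were not removed on either side, so these values include group differences and are not on the same basis as those above. In the 9 libraries with a score above 0 the median r over the 45 pairs was 0.73 and 44 were positive. In the 11 libraries with a score below 0 it was 0.58 and again 44 were positive. Junb and Zfp36 had 0.95 and 0.82, Fos and Egr1 0.97 and 0.86, and Fosb and Atf3 0.90 and 0.88. With group means and the neutrophil score both removed from the 20 libraries, all 45 were positive with a median of 0.63. Removing the score took r of Junb with Zfp36 to 0.89 and of Fos with Junb from 0.79 to 0.62, and left Fosb with Atf3 at 0.87.

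The genes outside the 10 whose levels most resembled their mean, over 20 libraries with group means removed, were Gpr84 (r = 0.883), Ccno (0.846), Marcksl1 (0.846), Itgal (0.841), Nabp1 (0.840), Tnfsf14 (0.830), Gpr65 (0.830), Ifitm6 (0.830), Fosl2 (0.829) and Ifitm1 (0.827). Fosl2 encodes another FOS family protein. Gpr84, Ccno, Tnfsf14, Gpr65 and Ifitm6 are low in this table (means of -1.06 to 0.05 log2 CPM). For single genes, Csrnp1 (0.957), Fosl2 and Arg2 (both 0.953) were most like Junb. Ier3 (0.956), Ppp1r15a (0.949) and Syk (0.946) were most like Zfp36, Cdkn1a (0.905) like Ier2, Herpud1 (0.717) like Fosb, Nabp1 (0.849) like Jun and Cstf2t (0.807) like Egr1. By list, the median r with the mean of the 10 was highest for 9 genes of the ZFP36 family and its known target transcripts (0.664), followed by 0.615 for neutrophil markers, 0.606 for interferon-stimulated genes and 0.468 for 47 other immediate early and primary response genes. It was lowest for T cell markers (-0.481), followed by skeletal muscle markers (-0.446), and it was -0.005 for all tested genes.

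Other AP-1 family genes passed at shares near those of all tested genes. Of 14 tested, 1 rose and 1 fell in IL-4 and in IL-13, and 1 rose in IL-31, against 17.8%, 19.7% and 6.38% of all tested genes changing in either direction. The list had median differences of -0.02, -0.03 and 0.06. Jund, the JUN protein that is expressed without stimulation, rose in all 3 (0.39, 0.60 and 0.54, adjusted p = 0.0396, 0.00428 and 0.0239). Batf, an AP-1 factor of lymphocytes and dendritic cells, fell by 1.25 on the log2 scale in IL-4 (adjusted p = 0.0307) and by 1.61 in IL-13 (adjusted p = 0.00771). The IL-13 calls of Jund and Batf held when any 1 library was left out. In IL-4 both calls held in 14 of 20 such fits, with adjusted p up to 0.113 for Jund and 0.0681 for Batf, and Jund in IL-31 also held in 14 (up to 0.0735). The IL-4 call of Jund also ended with a replicate block (adjusted p = 0.0504).

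Among 47 other immediate early and primary response genes, 2 rose and 5 fell in IL-4, 2 rose and 3 fell in IL-13, and 1 rose and 1 fell in IL-31. The share that changed in either direction was below that of all tested genes in each comparison (17.8%, 19.7% and 6.38%). Their median differences were -0.29, -0.22 and -0.20, and 37, 35 and 36 of the 47 estimates were below 0. Gadd45g, a growth arrest and stress response gene, fell in all 3 (-1.24, -1.26 and -0.98, adjusted p = 0.00387, 0.00314 and 0.0312). Nfkbiz, an inducible regulator of NF-kB target genes, fell in IL-4 (-0.82, adjusted p = 0.00721) and IL-13 (-0.71, adjusted p = 0.0137). Irf1, an interferon-responsive transcription factor, fell in IL-4 (-0.69, adjusted p = 0.00683) and IL-13 (-0.49, adjusted p = 0.0351). Against this direction, Egr3, a relative of Egr1, rose in IL-4 (0.61, adjusted p = 0.0182) and IL-13 (0.60, adjusted p = 0.0174). Btg1, an antiproliferative gene, rose in all 3 (0.46, 0.46 and 0.43, adjusted p = 0.00468, 0.00427 and 0.0221). Leaving out any 1 library kept each of the IL-4 calls of these 5 genes and each of the IL-13 calls except Irf1, which held in 14 of 20 fits (adjusted p up to 0.0919). In IL-31, Gadd45g held in 13 fits (up to 0.0956) and Btg1 in 15 (up to 0.0735). Cebpd and Homer1 also fell in IL-4, and each held in 14 of 20 fits. With a replicate block the call of Cebpd ended (adjusted p = 0.0577).

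Of 24 kinases and factors upstream, 2 rose and 4 fell in IL-4, 3 rose and 2 fell in IL-13, and 2 rose in IL-31. These shares lie close to those of all tested genes in IL-4 and IL-13 (17.8% and 19.7% in either direction, and 6.38% in IL-31). Mapk3, which encodes the kinase ERK1, rose in all 3 (0.36, 0.46 and 0.37, adjusted p = 0.00586, 0.00187 and 0.0198), and its IL-31 call held in 15 of 20 fits (up to 0.0684). Map2k1, the kinase that activates ERK, fell in IL-4 (-0.52, adjusted p = 0.0141) and held in all 20. Among 15 other MAP kinase phosphatases and feedback genes, 1 rose and 2 fell in IL-4, 1 rose and 2 fell in IL-13 and none passed in IL-31. In IL-4 and IL-13 these shares also lie near those of all tested genes, and the medians over the 3 comparisons were 0.08, -0.06 and -0.02. The rises were Dusp16 in IL-4 (0.45, adjusted p = 0.0197) and Nab1, a corepressor of EGR proteins, in IL-13 (0.37, adjusted p = 0.0385), which held in 18 and 14 of the 20 fits that left out 1 library. Dusp10, a phosphatase of p38 and JNK, fell in IL-4 (-1.51, adjusted p = 0.00553) and IL-13 (-1.37, adjusted p = 0.0086). Spry4, an inhibitor of ERK signalling, fell in IL-4 (-0.85, adjusted p = 0.0291) and IL-13 (-0.96, adjusted p = 0.0143). The IL-4 call of Spry4 held in 16 of 20 fits (up to 0.0865), and the other 3 held in all.

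Of 9 tested genes of the ZFP36 family and transcripts that ZFP36 is known to bind, only Zfp36l1 passed, higher in IL-4 (0.25, adjusted p = 0.0389), in 12 of the 20 fits that left out 1 library (up to 0.0981). Among all tested genes 17.8%, 19.7% and 6.38% changed in either direction in IL-4, IL-13 and IL-31. The chemokine and cytokine transcripts of the ZFP36 list had large negative estimates with wide errors. In IL-4 they were -2.41 (SE 1.04, adjusted p = 0.116) for Cxcl1, -3.68 (SE 1.92, adjusted p = 0.197) for Cxcl2 and -3.74 (SE 2.02, adjusted p = 0.216) for Il1b. Of the 39 calls in these lists over the 3 comparisons, 19 held in every fit that left out 1 library. Under quantile normalization 26 passed, with the neutrophil score in the model 30, and with the muscle score 0. In fits of only the 10 libraries compared 12 passed, besides Batf in IL-4, which lay just under the threshold (limma adjusted p of 0.05 when rounded). Those lost there include all IL-31 calls and the calls of Egr3, Spry4 and Map2k1. Jund in IL-4 and Batf, Nfkbiz and Irf1 in IL-13 were lost as well. When PBS libraries 1, 2 and 3 were removed 4 passed, which were Cebpd, Elk3, Map2k1 and Dusp16 in IL-4.

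The annotation places other genes over parts of these loci. Jun overlaps its antisense gene Junos by 689 bp, Zfp36 overlaps the antisense gene Gm44710 by 1274 bp, Junb overlaps Prdx2 on the opposite strand by 351 bp, and Dusp1 overlaps Ergic1 on the opposite strand by 640 bp. Dusp1 also overlaps the sense intronic gene AC122252.1 by 1853 bp and a processed pseudogene by 227 bp on its own strand, and a processed pseudogene by 956 bp on the other strand. How much of each overlap lies in exons is not given here, and the exons of Dusp1 total 3311 bp. The sources used here do not say whether reads were counted by strand. Where an overlap lies in exons, reads from partners on the opposite strand therefore cannot be told apart from those of the gene. Reads from partners on the same strand could not be separated by strand in any case.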

How the data were processed

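RNA was sequenced from 20 ear pinna libraries, 5 a group; per the labels' protocols, the kits were RNeasy Plus Universal for RNA and NEBNext Ultra II for libraries. The authors deposited log2 CPM values with a floor of -2.684, which is an offset of 0.1556 CPM. The submitters' processing notes name GRCm38 and edgeR; for the aligner and counter, nothing is given in the sources used here. Fold changes, on the log2(CPM + offset) scale, are too small for low genes. Whole multiples of 1 read, within 0.02, made up 77.0 to 87.6% of low values by library, so reads were not recovered and no count test was run. Symbols, coordinates and exon lengths came from GENCODE release 21 for mouse, which matched 16644 identifiers.

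The 16461 genes that reached a log2 value of 0 in 5 or more libraries were tested in 1 limma model of 4 groups (eBayes with trend), with 6 contrasts and a moderated F. The test was first tried on simulated data with 200 changed genes. A marker score is the mean of centred log2 values over a list. Co-variation used 100000 within-group permutations. The 10 genes, the gene and marker lists and the tests were chosen with earlier results of these data known. All 10 genes are named; other lists are given by counts and by the members of smallest p, and likeness by the highest r. Protein sequences were not used here. The main model did not pair same-numbered libraries (mean correlation of their deviations 0.029). Alternatives were no filter, an offset of 1, quantile normalization, a replicate block, marker scores as covariates, fits of 10 libraries and leaving out libraries. Software was limma 3.58.1 under R 4.3.3, and matplotlib 3.10.9, scipy 1.17.1, pandas 2.3.3 and numpy 2.4.6 under python 3.11.15.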

Additional observations from a re-analysis of the deposited data

Results flagged for a closer look

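For each gene and group the highest and lowest library was compared with the rest of its group by Dixon's ratio of gap to range, with a critical value of 0.71 for 5 libraries. Chance alone flags about 1 in 20 groups, and 40 groups were tested. IL-4 library 4 stood above its group for Junb, at 7.61 log2 CPM where the other 4 lay between 6.82 and 7.05 (gap over range 0.712). IL-13 library 1 stood above its group for Nr4a1, at 5.73 where the other 4 lay between 3.60 and 4.13 (0.751). Both libraries had the highest neutrophil score of their group, 1.73 and 2.91, and the part of that in the values was not tested.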

How the results depend on the processing

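Over the 3 comparisons with PBS and the 3 between cytokines, no value of the 10 genes changed sign past the threshold. Removing 1 library at a time left 1178 single-gene results on the same side of the threshold, moved 10 past it and 12 below it; the other alternatives left 468, moved 2 past it and 10 below it. Under quantile normalization 0 of the 10 genes were lower in IL-13 (Nr4a1 -1.13, adjusted p = 0.0559). In IL-4, Egr1 passed in that setting (-0.94, adjusted p = 0.0498) beside Fos and Dusp1. With the skeletal muscle score as covariate, the genes called were 3 in IL-4, 0 in IL-13, 0 in IL-31 and 0 in the F test, and of the 10 genes 0 were lower in IL-4, 0 in IL-13 and 0 passed the F test. In that fit Rps6ka5, a MAP kinase-activated kinase, went from -0.42 to 0.17 in IL-4 and to 0.13 in IL-13. With the neutrophil score, 1 of the 10 was lower in IL-4, 0 in IL-13 and 0 passed the F test, and 269 genes were called in IL-4 against IL-31 and 128 in IL-13 against IL-31. In fits of only the 10 libraries compared, 1269, 1134 and 0 genes were called in IL-4, IL-13 and IL-31, 3 in IL-4 against IL-31, and 0 of the 10 were lower in IL-13. Without PBS libraries 1, 2 and 3, chosen after seeing the data, the counts were 1200, 385 and 0, with 492 by the F test, and 0 of the 10 lower in IL-4, in IL-13 or passing the F test; this leaves 2 PBS libraries. The cause of these shifts was not tested.

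With 1 library left out, genes called ran from 1885 to 3553 in IL-4, 1995 to 4703 in IL-13, 0 to 3029 in IL-31, 0 to 304 in IL-4 against IL-31, 0 to 297 in IL-13 against IL-31, 0 to 0 in IL-4 against IL-13 and 1085 to 3605 in the F test. Of the 10 genes, 2 to 4 were lower in IL-4, 0 to 4 in IL-13, 0 to 0 in IL-31, and 0 to 3 passed the F test.

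A correlation cannot show whether replicate numbers paired the libraries. Deviations of same-numbered libraries correlated from -0.236 to 0.486 (mean 0.029), with a mean of 0.249 for number 2. Those of different-numbered libraries across groups correlated from -0.561 to 0.448 (mean -0.006), and 3 of 20 libraries correlated best with their own number. The replicate block called 2952, 3252 and 1247 genes against PBS, in the order above, and 2 in IL-4 against IL-31, kept Fos, Dusp1 and Nr4a1 (adjusted p = 0.0227, 0.0115 and 0.0425), ended the IL-4 calls of Jund and Cebpd (0.0504 and 0.0577), and 0 of the 10 passed its F test.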
